A study of Mus musculus with 8 samples.

Results

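The 10 genes described here encode cytokines of myeloid cells: Il1a, Il1b, Il1rn, Il6, Il10, Il18, Tnf, Osm, Csf3 and Tgfb1. They were taken by name as rows of a single-cell table of 16889 genes, and all 10 were found in it. The cells were sorted from the lamina propria of the colon of 8 female CD98hcΔCX3CR1 mice as CD11b+ cells that were positive for CCR2 or CD64. The 4 control mice (replicates 1 to 4) received corn oil, and the 4 cKO mice (replicates 5 to 8) received 100 µl of tamoxifen at 20 mg/ml daily on 5 consecutive days, with readout at day 7. All 8 mice share the floxed CD98hc gene and the Cre recombinase that tamoxifen activates, which is expressed from the Cx3cr1 locus together with EYFP, so deletion is directed to cells that use Cx3cr1. Tamoxifen was given to cKO mice only, and its own effect and that of the deletion cannot be told apart. The age of the single mice is not stated in the labels.

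IL-1α and IL-1β act through the same receptor, and IL-1 receptor antagonist, the product of Il1rn, occupies that receptor without signaling. TNF, IL-6, oncostatin M and G-CSF, the product of Csf3, are made by activated monocytes and macrophages. IL-10 and TGF-β restrain these cells, and macrophages of the healthy gut are known for their response to IL-10. IL-1β and IL-18 are made as precursors that inflammasome caspases cleave, so their mRNA does not give the amount of active protein.

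Of these genes, 4 (Il1a, Il1rn, Osm and Csf3) were higher in cKO mice when all cells of a mouse were summed. RefSeq promoter windows on GRCm38.p6 were given for 7 of the 10 genes, not for Osm, Csf3 and Il10. The 250 bases before the transcript start of Il1a (chr2:129309973-129310222, minus strand) and of the most upstream start of Il1rn (chr2:24336610-24336859, plus strand) are shown because both genes were higher in cKO mice over all cells and in monocyte-like cells. Capitals mark matches to TGANTCA, the letters bound by AP-1, on either strand.
Il1a: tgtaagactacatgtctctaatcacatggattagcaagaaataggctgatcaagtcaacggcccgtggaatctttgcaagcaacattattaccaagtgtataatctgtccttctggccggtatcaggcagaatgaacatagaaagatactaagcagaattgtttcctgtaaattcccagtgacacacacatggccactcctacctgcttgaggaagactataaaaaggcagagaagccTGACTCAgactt
Il1rn: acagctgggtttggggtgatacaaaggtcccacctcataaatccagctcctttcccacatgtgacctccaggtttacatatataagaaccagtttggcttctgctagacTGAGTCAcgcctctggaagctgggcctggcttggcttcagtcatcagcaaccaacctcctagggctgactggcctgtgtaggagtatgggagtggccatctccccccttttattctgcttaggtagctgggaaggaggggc

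The match began 12 bases before the start in Il1a and 141 bases before it in Il1rn. The windows of the further starts of Il1rn held no match to TGANTCA. A match to it was also in the window of Il6, and 6.75% of 32851 mouse promoter windows of this length held one. The 7 genes had 9 windows, and these shares count windows, not genes. The letters GGNNNTTCC, a pattern of NF-κB, were matched in the windows of Il6 and Tnf and in that of a further start of Il1rn, against 15.7% of all windows. The STAT pattern TTCNNNGAA and the interferon response pattern GAAANNGAA were matched in none of the windows of the 7 genes, against 7.02% and 7.13% of all windows. These matches describe letters only.

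Unique molecular identifiers (UMIs) were counted per gene and cell, and levels are given as CPM, which express a gene's part of all UMIs in a mouse, or in its cells of a cluster, as parts per 1000000. Of 5947 barcodes, 3213 cells were kept, 83 to 724 per mouse, with 497531 to 3762314 UMIs per mouse and a median of 4149 to 5538 UMIs per cell. Control replicate 3 and cKO replicate 5 had 85 and 83 cells, and 24 of the 83 cells of cKO replicate 5 were called doublets, against 73 calls in all. The targeted gene Slc3a2, which encodes CD98hc, had a log2 fold change of 0.02 (SE 0.21, edgeR adjusted p = 0.976) in cKO mice over all cells, so its count did not check the labels. Barcodes shared between libraries could not be counted, because the deposited cell names carry running sequences in place of the barcodes of the kit.

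Cells were placed in 9 clusters built without the cytokines and their pathway genes. Cluster 1 (630 cells) was monocyte-like and was led by genes that include Dmkn, Chil3, Mgst1 and Ifitm6. Cluster 2 (543 cells) was led by Ccl24, Saa3, Arg1, Il1a and Il1rn and held no marker of a fixed list among its leading genes, so it stays unnamed; Il1a and Il1rn lead it although they were not used to build it. Cluster 3 (510 cells) was dendritic cell-like, led by Cd209a, Cd24a, Xcr1, Klrd1 and Tnni2. Cluster 4 (416 cells; Ccr2, Dusp6, EYFP, Clec4a2, Ly86) is unnamed as well. Clusters 5 (364 cells; Fcrls, Pf4, C1qc, Apoe, Hpgds) and 6 (268 cells; Ccl8, Cela1, Pf4, Folr2, Npl) were macrophage-like, and cluster 6 was shallow, its cells holding 0.24 of the median UMIs seen in the mouse they came from. Cluster 7 (217 cells; Cebpb, Jund, Ier5, Maff, Vegfa) is unnamed and was shallow too, at 0.34. Cluster 8 (179 cells; Jchain, Mzb1, Gzmb, Ly6d, Cxcr6) was lymphoid-like and cluster 9 (86 cells; Dcn, Col3a1, Adamdec1, Sparc, Col1a2) stromal-like, although the sort was for myeloid cells. Per the study's methods, flow cytometry gates left out cells that carry Ly6G, a neutrophil marker, or markers of lymphoid lineages. Neutrophils, a major source of several of these cytokines, were not seen as a cluster, and S100a9 was at 1 CPM or less in every cluster. Other genes of the neutrophil list were counted in cluster 1, among them Csf3r (79.4 CPM), G0s2 (82.7 CPM), Mmp8 (46.8 CPM) and S100a8 (18.3 CPM). They were not particular to it: G0s2 was higher in stromal-like cluster 9 (141 CPM), and cluster 2 held Csf3r at 78.6 CPM and Mmp8 at 32.4 CPM.

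In control mice, the IL-1 genes had their highest mean level in cluster 2. Il1b was at 8747 ± 2094 CPM there (SD, n = 3 mice), followed by cluster 4 with 4023 ± 342 CPM and cluster 7 with 3179 ± 1163 CPM. Within mice, cluster 2 exceeded cluster 4 by 4724 ± 1878 CPM (SD, n = 3), whereas the steps from cluster 4 to 7, from 7 to 1 and from 1 to 5 did not exceed their spread. The antagonist Il1rn was also highest in cluster 2, where it reached 583 ± 132 CPM, before cluster 7 with 325 ± 301 CPM and cluster 4 with 131 ± 19.8 CPM. Il1a, the alarmin of the pair of agonists, reached 64.3 ± 83.1 CPM in cluster 2, a spread set by control replicate 4 at 160 CPM against 9.49 and 23.6 CPM in replicates 2 and 1.

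**Figure D1:**
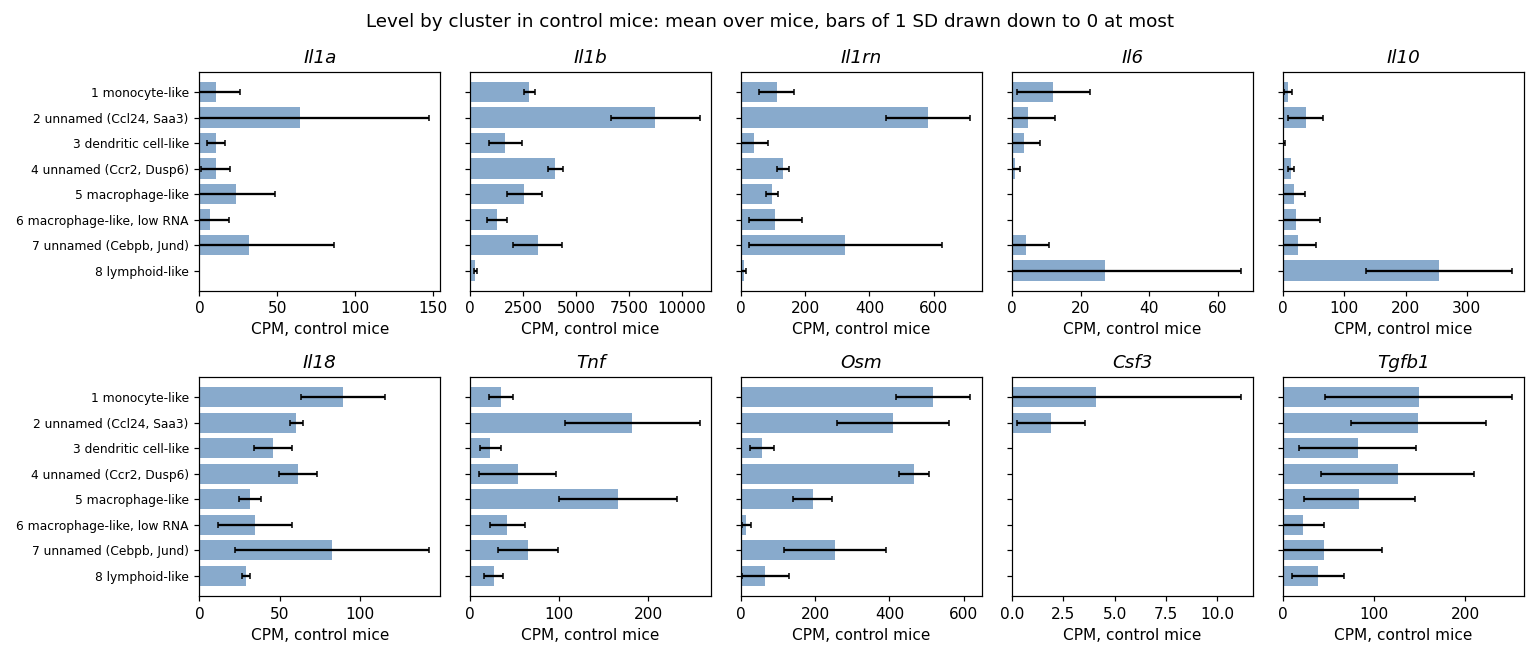
Level of each cytokine by cluster in control mice, as mean CPM over the mice with at least 20 cells (bars) with 1 SD (lines, n = 3 mice, n = 4 in cluster 3), on axes that start at 0. Cluster 2 is highest for Il1a, Il1b, Il1rn and Tnf, and lymphoid-like cluster 8 for Il10; cluster 9 had too few cells per mouse.

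Tnf, which acts on nearly all cells through TNFR1, was at 182 ± 75.5 CPM in cluster 2 and at 166 ± 66.2 CPM in macrophage-like cluster 5, and these did not differ beyond the spread of the within-mouse difference (16.4 ± 37.6 CPM, n = 3). The next cluster, 7, was at 64.9 ± 33.4 CPM, and cluster 5 exceeded it beyond that spread. Osm, an IL-6 family cytokine that acts on stromal and epithelial cells, was at 517 ± 101, 466 ± 40.3 and 410 ± 151 CPM in clusters 1, 4 and 2, in an order that the spread does not separate. Among the clusters with 3 or more control mice, Osm was lowest in the low-RNA macrophage-like cluster 6, at 14.4 ± 12.5 CPM. That value rests on 2 UMIs in 131 control cells. Il18 was at 89.3 ± 26.3 CPM in cluster 1 and at 28.9 ± 2.62 CPM in cluster 8, with no neighbouring pair among the 4 highest clusters separated by its spread. Tgfb1 was near 148 CPM in clusters 1 and 2, with SDs of 102 and 73.9 CPM.

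Il10 had its highest mean outside the myeloid clusters. In the lymphoid-like cluster 8 it was at 255 ± 119 CPM (n = 3 control mice), and at 37.0 ± 28.8 CPM in cluster 2, which was the next. Of 224 control UMIs of Il10, 44.2% were in cluster 8, 21.9% in cluster 5 and 16.1% in cluster 2. Il6 was also highest in cluster 8 by its mean, 27.1 ± 39.6 CPM, but 10 of the 11 UMIs behind it came from 1 cell of control replicate 4. For Csf3, the growth factor of neutrophils, 6 UMIs were counted in control mice, 3 in cluster 1 and 3 in cluster 2.

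Shares by cluster pool the control and cKO cells of all 8 mice unless a condition is named. As sequenced, a UMI of Il1b was found in 85.1% of all cells (95% Wilson interval 83.9 to 86.3). The share was 99.8% in cluster 2 and 93.3% in cluster 1, but also 48.8% in stromal-like cells (38.6 to 59.2) and 48.6% in lymphoid-like cells with median depths of 4823.5 and 3550 UMIs against 5588 UMIs in cluster 2. Shares at or below those of stromal-like cells are read as background. After thinning each cell to 1000 UMIs, leaving out shallower cells (1764 of 1863 control and 1271 of 1350 cKO cells remained), the expected shares were 97.0% in cluster 2, 80.0% in cluster 1, 48.2% in dendritic cell-like cluster 3, 19.5% in cluster 8 and 14.2% in cluster 9. Il1rn was found in 79.0% of the cells of cluster 2 and 53.5% of those of cluster 1, against 3.49% of stromal-like cells. By condition, the Il1rn share was 23.8% of control and 63.9% of cKO cells in cluster 1, and 68.9% and 86.9% in cluster 2. Osm was found in 74.2%, 68.3% and 50.5% of the cells of clusters 2, 1 and 4, and in 3.49% of stromal-like cells. Intervals cover counting error only.

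**Figure D2:**
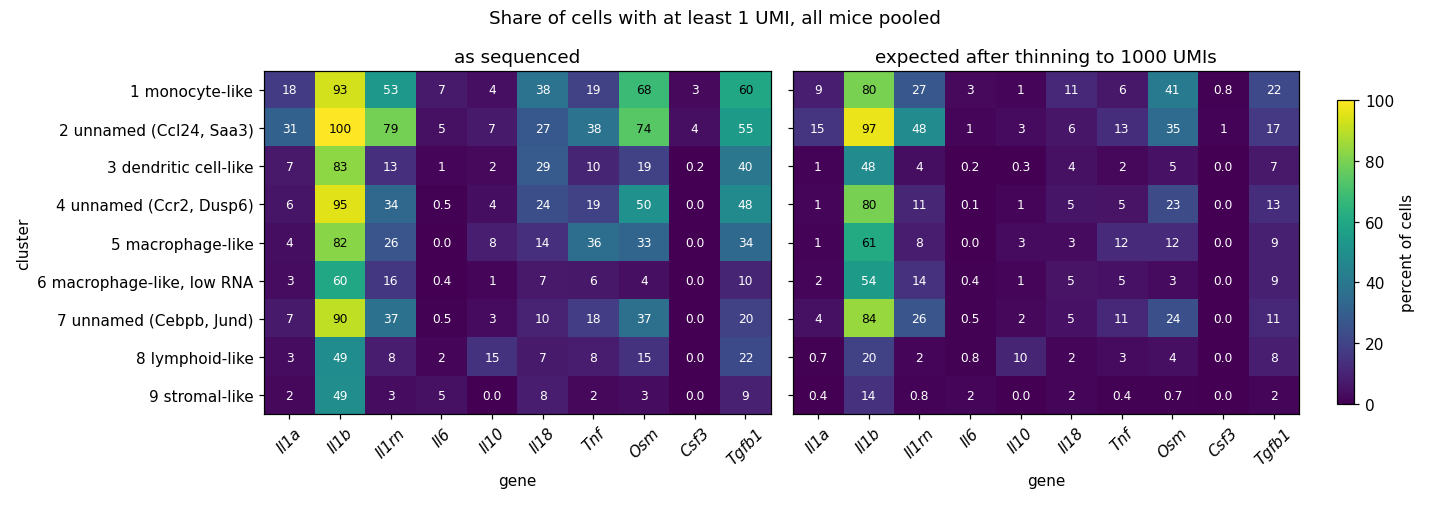
Share of cells with at least 1 UMI of each cytokine (columns, percent of cells, colour and number) in each cluster (rows), as sequenced (left) and after thinning each cell to 1000 UMIs, computed from its counts (right), over the cells of all 8 mice. Il1b is found in 48.8% of stromal-like cells as sequenced and in 14.2% after thinning, against 99.8% and 97.0% in cluster 2.

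The rarer cytokines were found in few cells. With both conditions pooled, Il1a was found in 30.9% of the cells of cluster 2 (27.2 to 34.9) and 17.6% of those of cluster 1 (14.8 to 20.8), against 2.33% of stromal-like cells. In cluster 1 it was found in 5 of 164 control cells (3.05%, 1.31 to 6.94), an interval that holds the stromal-like share. The share of cKO cells there was 22.7%. In cluster 2 the Il1a shares were 16.0% of control and 42.6% of cKO cells. Il6 was found in 88 cells, 46 of them in cluster 1 (7.30%, 5.52 to 9.60) and 25 in cluster 2 (4.604%, 3.14 to 6.71). By condition, these were 8 control and 38 cKO cells in cluster 1, and 5 and 20 in cluster 2. The share in cluster 2 was not above that of stromal-like cells (4 of 86, 4.65%, 1.82 to 11.4). Fibroblasts are themselves a known source of IL-6, so these cells are no clear background for it. It was found in macrophage-like cluster 5 in 0 of 364 cells, which allows a share of cells with a UMI of up to 0.824% by the floor of 3 counts used for all such zeros. Il10 was found in 14.5% of lymphoid-like cells (10.1 to 20.4), 8.24% of cluster 5 and 7.18% of cluster 2, and in 0 of 86 stromal-like cells, which allows up to 3.49%. Csf3 was found in 41 cells, 23 in cluster 2, 17 in cluster 1 and 1 in cluster 3, and in 0 of 416 cells of cluster 4, which allows up to 0.721%.

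The comparison of cKO with control mice asks how deletion of CD98hc in cells that use Cx3cr1 goes with cytokine expression, with the mouse as the replicate. Over all cells summed, 4 of the 10 cytokines passed the test, all higher in cKO mice, and none lower. Of 11387 genes tested, 2.99% were called higher and 1.48% lower. The median log2 fold change was 1.35 over the 10 cytokines and -0.03 over all genes tested, and all 10 estimates were above 0, with that of Tnf at -0.06 when the dendritic cell-like, lymphoid-like and stromal-like clusters were left out. Groups did not overlap for 3 of the 10, against 12.3% of all genes tested. The 10 cytokines were chosen with earlier results of these data known, so these contrasts with all genes are descriptive. In sums over all cells, a change in the number of cells of a type and a change in RNA per cell cannot be told apart.

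Il1rn (GRCm38 chromosome 2, 24336853 to 24351494) was at 127, 65.4, 190 and 260 CPM in control replicates 1, 2, 3 and 4, and at 364, 398, 909 and 525 CPM in cKO replicates 5, 6, 7 and 8. Each cKO mouse was above each control mouse. The means were 161 ± 83.4 and 549 ± 250 CPM (SD, n = 4 each), with a log2 fold change of 1.89 (SE 0.40, edgeR adjusted p = 0.0222). Il1a (chromosome 2, 129299610 to 129309972) was at 11.7, 7.03, 39.0 and 53.5 CPM in the control mice and at 56.3, 94.9, 434 and 135 CPM in the cKO mice in the same order. Again no value overlapped, although the highest control and the lowest cKO value were close. Its log2 fold change was 2.95 (SE 0.70, edgeR adjusted p = 0.0376). Il1b (chromosome 2, 129364570 to 129371139), at 1901 to 4907 CPM in control and 3142 to 8568 CPM in cKO mice, overlapped between the groups and had a log2 fold change of 0.80 (SE 0.33, edgeR adjusted p = 0.19).

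Osm (chromosome 11, 4236420 to 4241026) was at 234, 135, 178 and 304 CPM in control replicates 1 to 4 and at 360, 446, 679 and 423 CPM in cKO replicates 5 to 8, without overlap. The log2 fold change was 1.27 (SE 0.26, edgeR adjusted p = 0.0218). Csf3 (chromosome 11, 98701263 to 98703629) was at 0.27, 0, 0 and 1.68 CPM in control mice and at 0, 2.42, 37.4 and 6.12 CPM in cKO mice, so the groups overlapped at 0. Behind these values were 6 control and 111 cKO UMIs, of which 93 were in cKO replicate 7 and 41 in a single cell of that mouse. The log2 fold change of Csf3 was 4.61 (SE 1.12, edgeR adjusted p = 0.0388), and 70.9% of its UMIs were in 10 cells.

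The other 6 cytokines did not pass the test. Il10 came nearest to it, at 12.2 to 32.3 CPM in control and 24.5 to 109 CPM in cKO mice, with a log2 fold change of 1.43 (SE 0.41, edgeR adjusted p = 0.0699). The highest value was that of cKO replicate 5, where 52 UMIs came from 3 cells of cluster 2 in a mouse with 83 cells. Without that mouse the log2 fold change was 1.07 (edgeR adjusted p = 0.109), and with doublet calls left out it was 0.81 (edgeR adjusted p = 0.289). Il6 was at 4.78, 0.61, 0 and 11.8 CPM in control and 0, 4.84, 43.0 and 17.1 CPM in cKO mice, with a log2 fold change of 2.03 (SE 0.81, edgeR adjusted p = 0.184). Log2 fold changes were 0.89 for Tgfb1 (edgeR adjusted p = 0.295), 0.67 for Il18 (edgeR adjusted p = 0.19) and 0.41 for Tnf (edgeR adjusted p = 0.421). The cKO replicate 7 had the highest value of all 8 mice for 9 of the 10 cytokines, the exception being Il10.

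**Figure D3:**
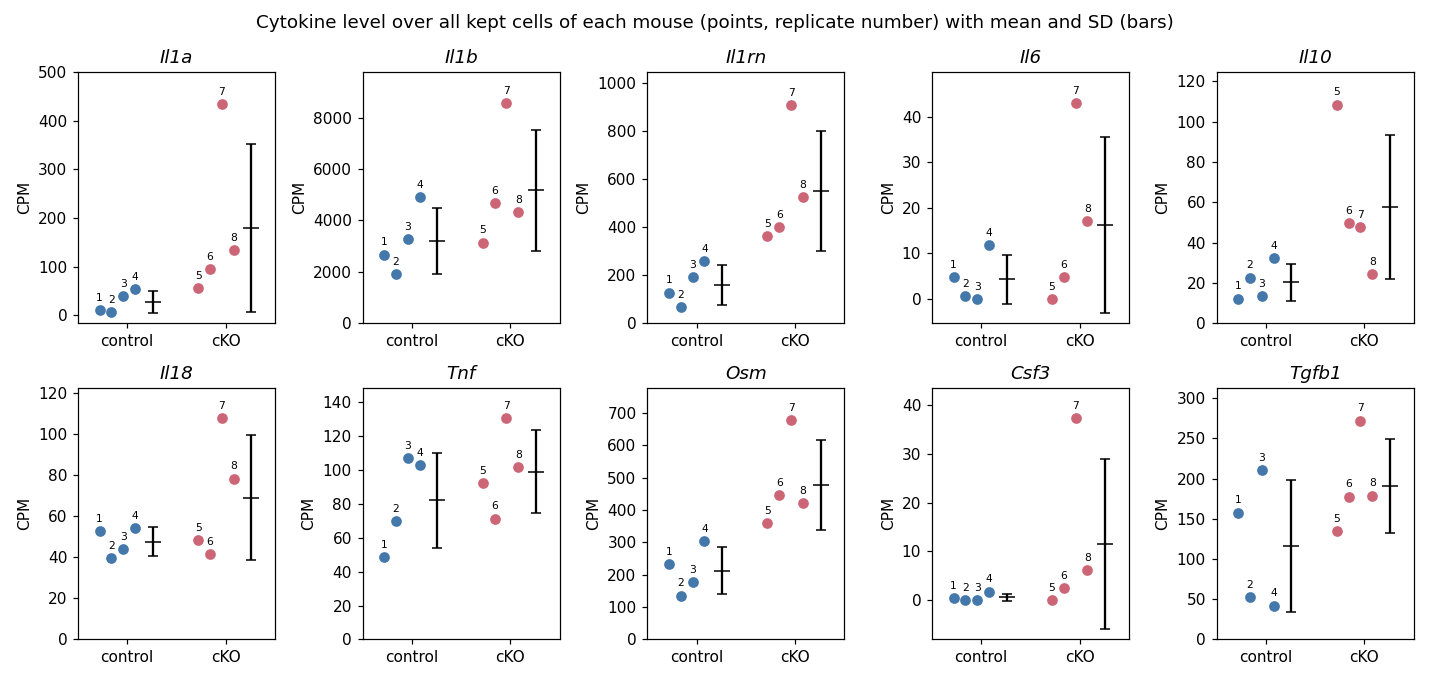
Level of each cytokine over all kept cells of each mouse in CPM (points, with the replicate number; control blue, cKO red), with the mean and SD of the 4 mice of each group (line with bars). The groups do not overlap for Il1a, Il1rn and Osm, and cKO replicate 7 is the highest mouse for all genes but Il10.

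Calls over all cells were lost when single mice or some cells were left out. Without control replicate 1, without control replicate 2 or without cKO replicate 7, none of the 10 passed the test, and without cKO replicate 7 the log2 fold changes were 2.01 for Il1a, 1.51 for Il1rn, 1.02 for Osm and 2.70 for Csf3. Without control replicate 1 they were 2.64, 1.79, 1.32 and 4.27, and without control replicate 2 they were 2.56, 1.62, 1.09 and 4.10, in the same order. Without control replicate 4 all 4 were called, with 3.81, 2.24, 1.48 and 6.32. Without control replicate 3 the calls of Il1a and Csf3 were lost, and without cKO replicate 8 those of Il1a, Il1rn and Csf3. With doublet calls left out, Il1a (log2 fold change 2.94, edgeR adjusted p = 0.0556) and Osm (1.16, edgeR adjusted p = 0.0552) no longer passed, and with the dendritic cell-like, lymphoid-like and stromal-like clusters left out the call remained for Il1rn (log2 fold change 1.40, edgeR adjusted p = 0.0333) but not for Il1a (2.54), Osm (0.80) and Csf3 (3.97).

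Markers of cell types moved with the condition in the same sums. Of 10 monocyte markers 7 were higher in cKO mice, and their summed level was 2013 to 3878 CPM in control and 7869 to 12182 CPM in cKO mice. Of 14 dendritic cell markers 10 were lower, at 1402 to 1633 and 499 to 667 CPM. Of 18 macrophage markers 2 were higher and 1 lower (11954 to 23829 and 10034 to 16192 CPM). Of 5 neutrophil markers tested 2 were higher, S100a8 (log2 fold change 2.63) and G0s2 (2.08), and the sums of the list, 39.4 to 85.8 and 102 to 164.5 CPM, did not overlap. Of that list, S100a9, Ngp and Cxcr2 were at or near 0 in every cluster. Of 11 lymphoid markers tested 1 was higher (258 to 8841 and 4335 to 13035 CPM), and of 14 dissociation stress genes none was called (14815 to 16451 and 12150 to 17004 CPM). The part of these lists in the cytokine results was not tested.

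Receptors, signaling proteins and mRNA regulators of the same cytokines were counted as a list of 92 genes, of which 91 were in the table and 84 were tested. Of the 84, 4 were higher in cKO mice, none was lower, and their median log2 fold change was 0.30, against 2.99% and 1.48% of all genes tested and a median of -0.03, so the count of 4 is near the background. Tnfrsf1b, the TNFR2 receptor, was at 47.9 ± 12.4 CPM in control and 104 ± 18.5 CPM in cKO mice (log2 fold change 1.19, SE 0.20, edgeR adjusted p = 0.00824). Pim1, a kinase gene induced by STAT3 and STAT5, rose with a log2 fold change of 1.06 (edgeR adjusted p = 0.0349). Tnip1, which encodes a partner of the inhibitor A20, rose by 1.02 on this scale (edgeR adjusted p = 0.0478), and Casp4, the inflammatory caspase-11 gene, by 0.88 (edgeR adjusted p = 0.0473). None of the 8 genes of the IL-10 list and none of the 19 tested genes of the TGF-β list passed the test.

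Within clusters, counts were summed per mouse and cluster from at least 20 cells, and 7 clusters had 3 or more mice of each condition. Macrophage-like cluster 5 had no cKO mouse with 20 cells and was not tested, and neither was cluster 9. In monocyte-like cluster 1, 2 cytokines were called, both higher, of 11087 genes tested of which 0.911% were called. In cluster 2, 2 were called, both higher, where 0.541% of genes were called. None of the 10 was called in clusters 3, 4, 6, 7 and 8, where 0.406%, 0.631%, 0.0722%, 0.0271% and 0.0812% of genes were called.

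In cluster 1, Il1rn was at 170, 59.0 and 102 CPM in control replicates 1, 2 and 4 and at 341, 341, 773 and 449 CPM in cKO replicates 5, 6, 7 and 8. The groups did not overlap, and the log2 fold change was 2.17 (SE 0.44, edgeR adjusted p = 0.002). Il1a was at 3.94, 0 and 28.6 CPM in the control mice and at 28.4, 63.9, 284 and 208 CPM in the cKO mice, from 8 and 484 UMIs over all mice. The control replicate 4 and cKO replicate 5 values touched, and the log2 fold change was 3.86 (SE 0.79, edgeR adjusted p = 0.00215). Osm was at 540, 407 and 605 CPM in control and 739, 724, 1062 and 784 CPM in cKO mice, without overlap, but did not pass the test (log2 fold change 0.74, SE 0.32, edgeR adjusted p = 0.423). Both calls were kept with each mouse left out in turn, with the log2 fold change of Il1a at 6.07 without control replicate 4, but they depended on where the cluster was drawn. With 12 clusters, the log2 fold changes in the matched cluster were 0.66 for Il1a (edgeR adjusted p = 0.97) and 1.18 for Il1rn (edgeR adjusted p = 0.371). With clusters built without genes that differ between conditions they were 3.12 (edgeR adjusted p = 0.165) and 0.85 (edgeR adjusted p = 0.622). None of these was called. The cells shared with cluster 1, as a part of the cells in either cluster (Jaccard index), were 0.66 and 0.34. The matched clusters thus hold partly other cells. All 10 estimates in cluster 1 were above 0, as were all 10 in cluster 2. Their median log2 fold change was 1.14 in cluster 1 and 0.76 in cluster 2, against 0.03 and -0.01 over all genes tested. Of the pathway list, Pim1 (log2 fold change 1.48), Traf1 (1.79), Tnfaip3 (1.59) and Tnip1 (1.59) were higher in cluster 1, the last 3 being genes of TNF receptor signaling and its brakes.

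In cluster 2, Il1a was at 23.6, 9.49 and 160 CPM in control replicates 1, 2 and 4 and at 224, 950 and 293 CPM in cKO replicates 6, 7 and 8. Its log2 fold change was 2.6 (SE 0.52, edgeR adjusted p = 0.00224), and without cKO replicate 7 it was 1.68 and was not called (edgeR adjusted p = 0.329). Without control replicate 4 it was 4.77. It was not called with DESeq2 (2.92, adjusted p = 0.211) or with graph clustering (1.03, edgeR adjusted p = 0.467). Il1rn in the same sums was at 619, 437 and 693 CPM in control and 796, 1661 and 1459 CPM in cKO mice, without overlap, with a log2 fold change of 1.21 (SE 0.39, edgeR adjusted p = 0.236). Il1b, at 8747 ± 2094 CPM in control and 9803 ± 2212 CPM in cKO mice, overlapped between the groups in this cluster and had a log2 fold change of 0.24 (SE 0.36, edgeR adjusted p = 0.949). Csf3 had 3 UMIs in control and 76 in cKO mice, 65 of them in cKO replicate 7, a ratio of pooled CPM of 16.6 (exact counting interval 5.45 to 82.0, which covers counting error only), with edgeR adjusted p = 0.0433, which was lost without cKO replicate 7, control replicate 1, 2 or 4.

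**Figure D4:**
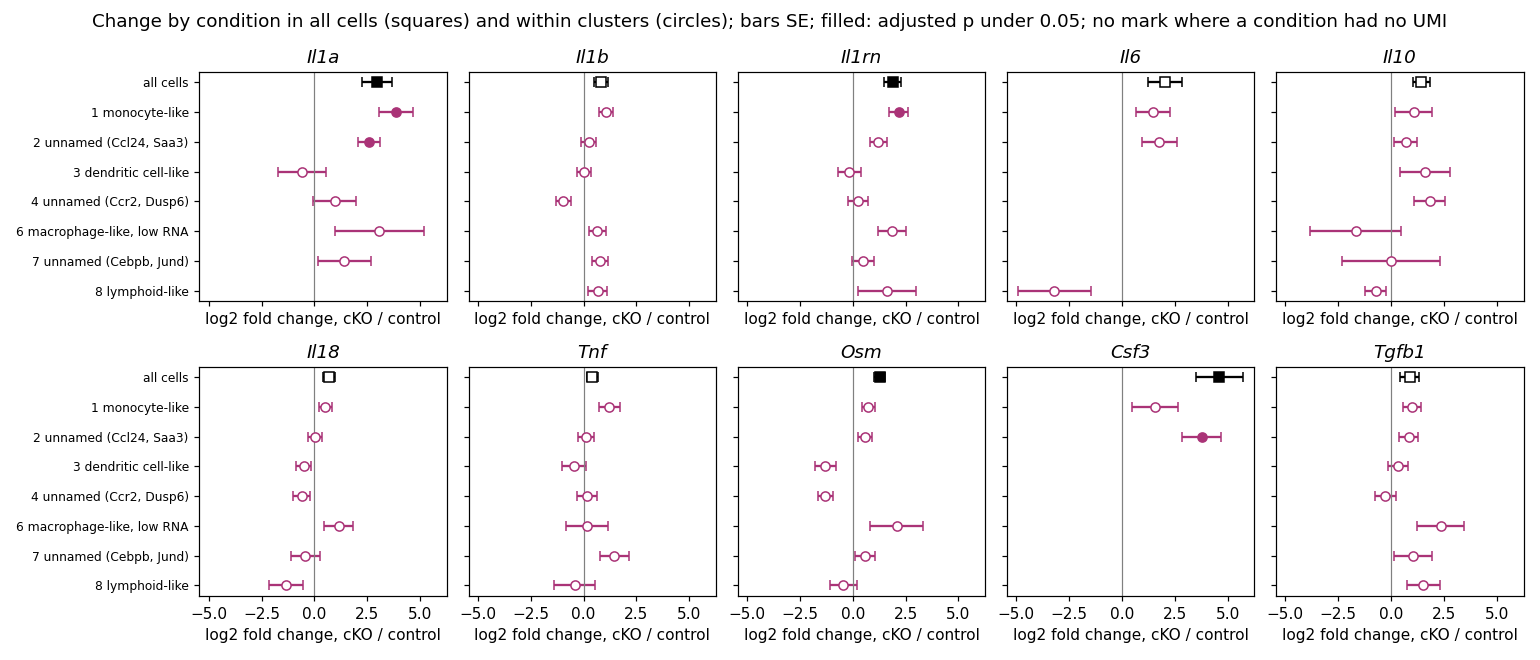
Log2 fold change of cKO over control (x axis) with its SE (bars) for each cytokine over all cells (squares) and within the 7 tested clusters (circles), where filled marks have an edgeR adjusted p under 0.05 and no mark is drawn where a condition had no UMI. Filled marks stand at Il1a in all cells and clusters 1 and 2, Il1rn in all cells and cluster 1, Osm in all cells, and Csf3 in all cells and cluster 2.

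In cluster 4, Osm was below control in cKO mice, at 469, 424 and 504 CPM in control replicates 1, 2 and 4 and at 345, 154 and 156 CPM in cKO replicates 6, 7 and 8. The log2 fold change was -1.30 (SE 0.37) and did not pass the test (edgeR adjusted p = 0.0818), and it passed without control replicate 4 (edgeR adjusted p = 0.0469) and without cKO replicate 6 (0.0341). Il1b in this cluster was at 3699 to 4380 CPM in control and 1449 to 3113 CPM in cKO mice, also without overlap, with a log2 fold change of -0.96 (SE 0.36, edgeR adjusted p = 0.344). Zfp36, which encodes the mRNA decay factor tristetraprolin that acts on several cytokine mRNAs, was lower in clusters 4 (log2 fold change -1.38, edgeR adjusted p = 1.76e-05) and 3 (-0.78, edgeR adjusted p = 0.0445). Other pathway genes were not called in clusters 2, 3, 4, 6, 7 and 8.

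Whether the change differed among the 7 clusters was tested directly. None of the 10 cytokines passed this test, where 0.0722% of 11087 genes did. Osm, with estimates of 0.74, 0.57, -1.30 and -1.30 in clusters 1, 2, 3 and 4, had the smallest value (F = 5.38, edgeR adjusted p = 0.138), which passed without control replicate 4 (edgeR adjusted p = 0.0318). The sums of a mouse in several clusters share that mouse.

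Shares of cells moved in the same way as the levels for a part of the genes. A UMI of Il1rn was found in 15.4% to 42.4% of the cells of control mice and in 44.7% to 65.9% of those of cKO mice, and after thinning to 1000 UMIs in 5.22% to 18.3% and 23.3% to 41.3%. For Osm the shares were 25.9% to 42.6% and 47.6% to 64.9%, and after thinning 10.5% to 20.6% and 25.2% to 36.4%. For Il10 the thinned shares were 1.08% to 2.30% and 2.34% to 3.03%, without overlap but close, while those as sequenced overlapped (2.49% to 5.54% and 4.87% to 6.82%). For Il1a the shares as sequenced were 2.77% to 10.0% and 13.8% to 30.8%, and after thinning 0.532% to 4.17% and 4.02% to 16.5%, which overlap.

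The genes most like each cytokine were sought over 48 sums of a mouse and cluster by the Pearson correlation of log2(CPM + 1), as a description of sums that share mice and depth. Il1b was most like Tgfbi (0.91), Plek (0.90) and Ncf4 (0.88), and Il1rn was most like Sdcbp (0.89), Tgfbi (0.85) and Litaf (0.85). Il1a was most like Acod1 (0.70), Fabp5 (0.70) and Arg2 (0.69). The nearest genes of Osm were Slc7a11 (0.85), Trps1 (0.84) and Thbs1 (0.81), and those of Tnf included Csf1r (0.75), the receptor of a macrophage growth factor, and Fcgr2b (0.72). Il10 was nearest to Crem (0.63), Hcst (0.61) and Lck (0.61), the last a T cell kinase. Il18 was nearest to Emilin2 (0.74), Gpr141 (0.72) and Plin2 (0.70), and Tgfb1 to Yipf4 (0.77), Fbxo6 (0.77) and Nmi (0.74). Csf3 was nearest to Pkm (0.72), Inhba (0.64) and Serpinb2 (0.64), and Il6 to Csf3 (0.57), Sgms2 (0.56) and 4732440D04Rik (0.53). Of the 117 UMIs of Csf3, 93 were in cKO replicate 7, and clusters 4 to 9 held none. Il6 had 209 UMIs in 88 cells. The correlations of both genes rest on few sums, with many at 0.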

How the data were processed

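The authors aligned reads of the 10x 3′ libraries with Cell Ranger and STAR 2.5.3a to mm10, per the labels, and deposited 1 table of raw UMI counts of genes in the cells of all 8 mice. The ends of the cell names gave the mouse. Cells were kept from a log10 UMI count of 2.8 and a log10 gene count of 2.6, if mitochondrial UMIs were 5% or less and hemoglobin UMIs 0. Doublets were called with Scrublet and kept. Clusters came from Ward clustering of denoised components (scran 1.30.0, scuttle 1.12.0). Sums of counts over the cells of a mouse, or over its cells in a cluster where these were 20 or more, were tested with edgeR 4.0.16 (TMM, quasi-likelihood) under R 4.3.3, with Benjamini-Hochberg adjustment over all genes tested at 0.05. Genes needed over 1 CPM in at least 3 sums and a UMI in at least 20 cells. The edgeR fits and the thinning were tested on simulated data. The simulated counts for the fits were independent, with no effect of a mouse shared among its clusters. Cell Ranger counts antisense reads apart, and no annotated gene overlaps a cytokine on its own strand in GENCODE vM21. DESeq2 1.42.0, other normalization, filters and clusterings and each mouse left out were alternatives. All 10 cytokines are named, with pathway genes past the threshold, the 3 most alike genes and the 5 leading genes of each cluster, except items not reported here. The cytokines and gene lists were chosen with earlier results of these data known.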

Additional observations from a re-analysis of the deposited data

Results flagged for a closer look

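In groups of 4 mice, 40 sets of values of a cytokine were tested for a mouse that stands far from the others, by its gap to the nearest of them against the whole range and Dixon's critical value at the 95% level, and chance flags about 1 set in 20. Csf3 over all cells stood apart in cKO replicate 7, at 37.4 CPM with a gap of 0.836 of the range, and in control replicate 4, at 1.68 CPM with 0.839 of the range, which is 5 UMIs in 5 cells. Osm in dendritic cell-like cluster 3 stood apart in control replicate 4, at 105 CPM with a gap of 0.912 of the range.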

How the results depend on the processing

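No paired analysis was possible because control and cKO mice share no replicate numbers. Over all cells, 4 cytokines and 510 genes were called. Cytokine calls fell to 2 without doublet calls, and to 1 (with 323 genes) without the dendritic cell-like, lymphoid-like and stromal-like clusters, where fewer cells enter. Without a low-count filter 787 genes were called. Leaving out 1 mouse at a time gave 0 to 5 cytokines and 145 to 712 genes, with 0 cytokines and 166, 145 and 187 genes without control replicate 1, control replicate 2 and cKO replicate 7, and 267 genes without cKO replicate 8. Il10 was called with DESeq2 (adjusted p = 0.0147), without a filter (edgeR adjusted p = 0.0119), and without control replicate 4 or cKO replicate 8, but its log2 fold change fell from 1.43 to 0.81 without doublet calls (edgeR adjusted p = 0.289) and to 1.07 without cKO replicate 5 (edgeR adjusted p = 0.109), and Csf3 was lost with DESeq2 (adjusted p = 0.132). For the clusters, no share over all genes stands beside the counts of cytokine calls under other settings. These counts tell only how the calls depend on the setting. A cluster fitted alone gave smaller p, for Il1a in cluster 1 an edgeR adjusted p of 3.965e-20 against 0.00215 in the main fit. In cluster 1, the 2 calls became 6 when the cluster was fitted alone, and 0 with 12 clusters or clusters built without the genes that differ between conditions. In cluster 2, the 2 calls became 4 when fitted alone, 0 with DESeq2, and 1 with graph clustering or with clusters built without those genes. Leaving out 1 mouse gave 2 to 3 calls in cluster 1 and 0 to 2 in cluster 2. In cluster 4, the fit of the cluster alone called 1 higher and 2 lower (Il10, and Il1b and Osm), 12 clusters called Osm lower (1), and graph clustering and clusters built without those genes called 1 higher, and leaving out 1 mouse gave 0 to 1 lower. Alone, cluster 6 had 1 call higher, and cluster 7 had 2 under graph clustering and 2 in clusters built without those genes. The difference among clusters gave 0 to 1 cytokines with 1 mouse left out. Clusters 2 and 4 were matched to the same cluster in both of these clusterings. Their Jaccard indices were 0.50 and 0.26 under graph clustering, and 0.29 and 0.25 in the clusters built without those genes. Of the 4 genes called over all cells, none changed sign in any of 16 settings. The cause of these changes was not tested.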

Other observations

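Cytokines were also compared within cells, as a description that shares depth and mouse. The comparison share is a mean over the cells with the first gene. For each of them it is taken among all other cells of its cluster and mouse, with or without that gene. Csf3 was found in 41 cells, and 26 of them (63.4%) also held a UMI of Il1a, against 33.8% of the other cells of the same clusters and mice. Il6 was found in 10 of the 41 (24.4%, against 7.06%), and Il1rn in 37 (90.2%, against 74.1%). Cells with Csf3 had a median of 6351 UMIs and the cells without it 4960.5. Among 88 cells with Il6, 34 held Il1a (38.6%, against 24.0%), and among 383 cells with Il1a, 294 held Il1rn (76.8%, against 62.6%) and 153 held Tnf (39.9%, against 29.0%). Il1b was found in 95.04% of cells with Il1a, against 94.2% of the other cells of the same clusters and mice. Tnf was found in 20.0% of 744 cells with Il18, against 22.5% of the other cells of the same clusters and mice.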
